A study of Arabidopsis thaliana with 16 samples.

Results

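The mRNA of *clf-81* seedlings was compared directly with that of *lhp1-3* seedlings, across all genes, to find the genes that separate the 2 Polycomb mutants of *Arabidopsis thaliana*. The difference was taken between 4 of the 16 libraries of the series, the 2 of *clf-81* and the 2 of *lhp1-3*. They were chosen by the genotype in the sample labels, and the fit used all 16. The other libraries, 2 per genotype, were of the wild type Col-0 and the mutants *aipp3*, *aipp2*, *paipp2*, *aipp2/paipp2* and *cpl2*. Their values are set beside those of *clf-81* and *lhp1-3* in places. *clf-81*, *lhp1-3* and Col-0 were sampled as whole 12-day-old seedlings, grown on sucrose-containing medium at 23 °C with 16 h of light and 8 h of darkness. *clf-81* carries a mutant allele of *CLF*, *lhp1-3* carries a mutant allele of *LHP1*, and Col-0 carries neither. The lesion of each allele is not given in the sources used here, and each genotype is a single line. Nothing states that the 2 libraries of a genotype came from separate cultures. The p-values measure the spread within genotypes, pooled over all 16 libraries, and this spread may be technical.

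Polycomb repression in plants rests on trimethylation of lysine 27 of histone H3 (H3K27me3), which marks genes that are kept silent until a tissue or season calls for them. CLF is a methyltransferase of Polycomb repressive complex 2 (PRC2), the complex that writes the mark, and shares this role with its paralog SWN. LHP1 is a chromodomain protein that binds the mark. Floral homeotic genes and *FLC*, the repressor of flowering, are classical targets of both proteins in seedlings.

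The 4 libraries held between 23900000 and 27100000 fragments, and each pair of replicates had a Pearson correlation across genes of 0.992 (*clf-81*) and 0.991 (*lhp1-3*), a value that treats genes as points and not as replicates. Values are fragments per kilobase of transcript, scaled for depth (FPKM), as deposited, and differences are on the scale of log2(FPKM + 0.5), *clf-81* minus *lhp1-3*, which understates the change of low genes. A gene was called when its adjusted p, from limma with Benjamini-Hochberg adjustment over 19895 genes tested, was under 0.05 and its difference at least 2-fold. Defining markers of green tissue and of root were present in every library: the 10 photosystem and carbon fixation genes tested summed to 9315 and 8978 FPKM in *clf-81* and 8563 and 8597 FPKM in *lhp1-3*. The 13 root markers summed to 2343 and 1979 FPKM in *clf-81* and 1982 and 1892 FPKM in *lhp1-3*, a sum carried by *PYK10*, a beta-glucosidase gene, with 2228 and 1872 FPKM in *clf-81* and 1885 and 1792 FPKM in *lhp1-3*. By gene, 9 of the 13 root markers had a negative difference, with a median of -0.32, and no gene of either list was called. *LHCB4.1* and *RBCS1A* of the green list stayed at or under 0.43 FPKM in all 16 libraries, so a value at 0 in these data can be a failed estimate.

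The mutated genes themselves were still transcribed in their own mutants. *CLF* (chr2:9955092-9960386) had 7.05 and 8.11 FPKM in *clf-81*, 11.4 and 10.2 FPKM in *lhp1-3*, and 9.94 and 9.98 FPKM in Col-0. *LHP1* (chr5:5827142-5829763) had 8.74 and 9.24 FPKM in *clf-81*, 6.29 and 6.45 FPKM in *lhp1-3*, and 8.94 and 10.2 FPKM in Col-0. Each transcript was therefore lowest in the mutant named for it, with no overlap between the mutants, although neither difference reached 2-fold (*CLF* -0.48, standard error 0.11, adjusted p = 0.013; *LHP1* 0.47, standard error 0.12, adjusted p = 0.022). *SWN*, the CLF paralog, had 16.1 and 13.4 FPKM in *clf-81* and 16.8 and 17.0 FPKM in *lhp1-3* (adjusted p = 0.42).

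Most genes that separated the mutants were higher in *clf-81*. Of the 19895 genes, 655 (3.29%) were called higher and 177 (0.89%) lower in *clf-81* than in *lhp1-3*, so that 78.7% of the calls were on the higher side, while the median difference of all genes was -0.04. At 4-fold or more the counts were 148 higher and 26 lower, and at 8-fold or more 41 and 6. All 832 called genes had both *clf-81* libraries on one side of both *lhp1-3* libraries, but so had 71.6% of all genes tested (31.6% with *clf-81* higher and 40.0% with it lower). The genes called higher had a median of 10.3 FPKM in *clf-81*, 2.72 FPKM in *lhp1-3* and 2.71 FPKM in Col-0. The nuclear genes called lower had medians of 1.90, 5.62 and 3.44 FPKM in the same order of genotypes. Col-0 lay below both mutants for 358 of the 655 genes, between them for 265 and above both for 32, against 32.8%, 26.7% and 40.5% of all genes tested. In the same fit, 1190 genes (5.98%) were called higher and 507 (2.55%) lower in *clf-81* than in Col-0, and 558 (2.8%) higher and 362 (1.82%) lower in *lhp1-3* than in Col-0. These comparisons share libraries with the direct one and are set beside it only as values. The second *clf-81* library carried much of the direct count: without it 415 genes were called higher and 67 lower, and without the second *lhp1-3* library 441 and 76. In whole seedlings, fewer cells of a type and less RNA per cell cannot be told apart.

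**Figure D1:**
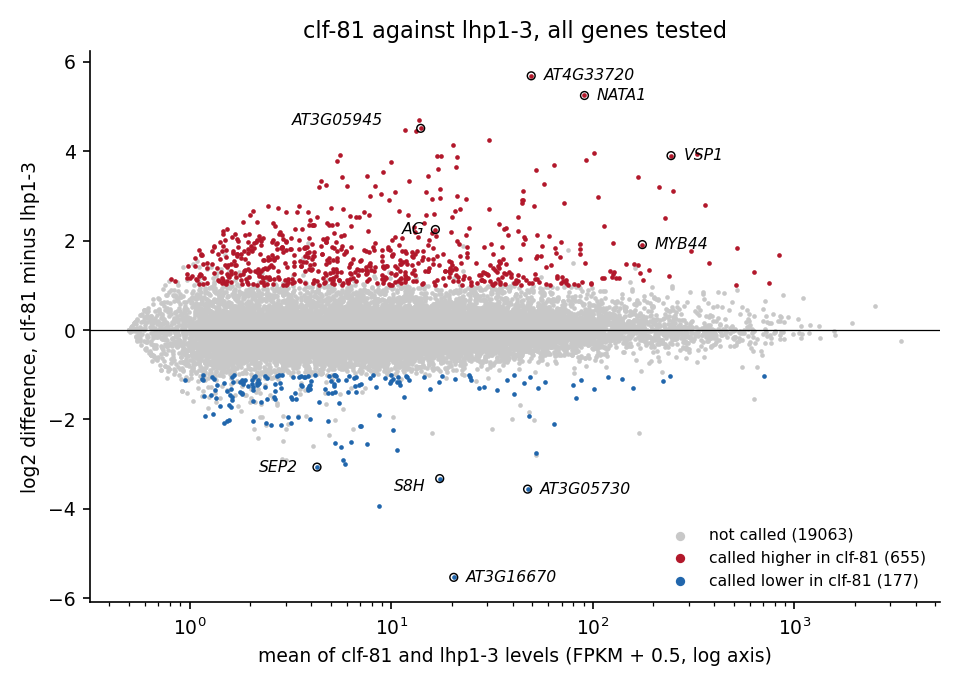
Each point is one of the 19895 genes tested; the horizontal axis is its mean level over *clf-81* and *lhp1-3* (FPKM + 0.5, log axis) and the vertical axis its log2 difference, *clf-81* minus *lhp1-3*. The 655 genes called higher in *clf-81* (red) outnumber the 177 called lower (blue), and the named genes reach from 5.69 (*AT4G33720*) to -5.53 (*AT3G16670*).

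Jasmonate genes formed the most uniform group among the gene lists. All lists were chosen with earlier results of these data known, so the counts of called members are a description. Jasmonate is the wound and defence hormone made from plastid lipids by LOX, AOC and OPR enzymes, and its signal is held back by JAZ repressors, whose own genes are switched on by the hormone. All 15 tested genes of a 17-gene jasmonate list were called higher in *clf-81*, with a median difference of 2.65 against -0.04 for all genes, and with any 1 library left out 13 to 15 were called. *VSP1*, a vegetative storage protein, had 336.9 and 581 FPKM in *clf-81*, 29.3 and 29.0 FPKM in *lhp1-3* and 6.15 and 6.21 FPKM in Col-0. Its level in *clf-81* was 15.8 times that in *lhp1-3* (log2 difference 3.90, standard error 0.28, adjusted p = 1.6e-05). Of the biosynthetic genes, *LOX3*, a lipoxygenase, had 28.1 and 32.5 FPKM in *clf-81*, 3.39 and 3.60 FPKM in *lhp1-3* and 3.26 and 3.02 FPKM in Col-0. *AOC1*, an allene oxide cyclase, had 92.6 and 114 FPKM in *clf-81*, against 10.8 and 9.72 FPKM in *lhp1-3*. The *lhp1-3* level of both enzymes was near that of Col-0 and far below that of *clf-81*. *LOX2* was an exception in this respect: it had 1140 and 1425 FPKM in *clf-81*, 403 and 391 FPKM in *lhp1-3* and 45.8 and 126.6 FPKM in Col-0, so both mutants lay above Col-0. Among the repressors, *JAZ8* had 6.16 and 10.11 FPKM in *clf-81* and 0.32 and 0.47 FPKM in *lhp1-3*. *JAZ10* had 14.1 and 19.5 FPKM in *clf-81* and 1.53 and 2.02 FPKM in *lhp1-3*. The other members ran from 1.38 (*JAZ2*) to 3.11 (*VSP2*, the neighbour of *VSP1*). *VSP1* and *VSP2*, and likewise the *AOC* genes, are near-identical neighbours, so reads may be shared between them. *MYC2*, the main transcription factor of the pathway, was listed at 0 in all 16 libraries and *AOS* reached 0.02 FPKM at most, so these 2 members were not tested. Over the Col-0 mean, the median log2 level of the 15 genes was 2.62 and 3.01 in the *clf-81* libraries, 0.10 and 0.30 in the *lhp1-3* libraries and between -0.25 and 1.31 in the 10 libraries of the other mutants.

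The jasmonate promoters were read from the reference as the 250 bases before the annotated gene start (RefSeq, TAIR10.1, matched by gene ID), since these genes moved together. The G-box CACGTG, the site bound by MYC factors, was searched on both strands. It was found in 3 of the 15 promoters (20.0%), against 66 of 646 (10.2%) of the genes called higher, 10 of 144 (6.94%) of those called lower and 1451 of 19558 (7.42%) of all nuclear genes tested. The 3 promoters are shown with the G-box in capitals. The first base of the G-box lies 66 bases before the start in *JAZ2* (chr1:28150447-28150696, minus strand), 34 in *JAZ7* (chr2:14572780-14573029, plus strand) and 10 in *JAZ8* (chr1:10596102-10596351, plus strand). In *JAZ8* a W-box (TTGACC, here on the opposite strand), the site bound by WRKY factors, is in capitals as well.
JAZ2: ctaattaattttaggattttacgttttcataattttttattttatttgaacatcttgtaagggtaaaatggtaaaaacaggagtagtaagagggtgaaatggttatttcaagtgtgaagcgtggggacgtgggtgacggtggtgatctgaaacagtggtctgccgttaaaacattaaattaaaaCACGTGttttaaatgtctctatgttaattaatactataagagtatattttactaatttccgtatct
JAZ7: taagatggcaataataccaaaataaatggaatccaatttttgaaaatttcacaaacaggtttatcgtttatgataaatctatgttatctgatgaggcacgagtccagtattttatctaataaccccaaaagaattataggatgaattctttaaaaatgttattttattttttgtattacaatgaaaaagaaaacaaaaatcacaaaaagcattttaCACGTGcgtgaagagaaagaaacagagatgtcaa
JAZ8: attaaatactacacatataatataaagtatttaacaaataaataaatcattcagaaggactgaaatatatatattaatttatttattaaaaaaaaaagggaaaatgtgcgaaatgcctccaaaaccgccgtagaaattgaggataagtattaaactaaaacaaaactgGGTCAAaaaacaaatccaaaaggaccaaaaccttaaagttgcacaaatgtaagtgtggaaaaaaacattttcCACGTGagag
The W-box was in 2 of the 15 jasmonate promoters (13.3%), beside 13.3% of the promoters of genes called higher, 15.3% of those called lower and 12.1% of all. The evening element AAAATATCT, a clock motif, was in 2 of the 15 (13.3%) as well, against 2.48% of all. AAACCCTA and GAGAGAGA, searched in the same way, were in 0 of the 15. With so few promoters, no motif was singled out by these shares. A match says only that the letters are present.

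**Figure D2:**
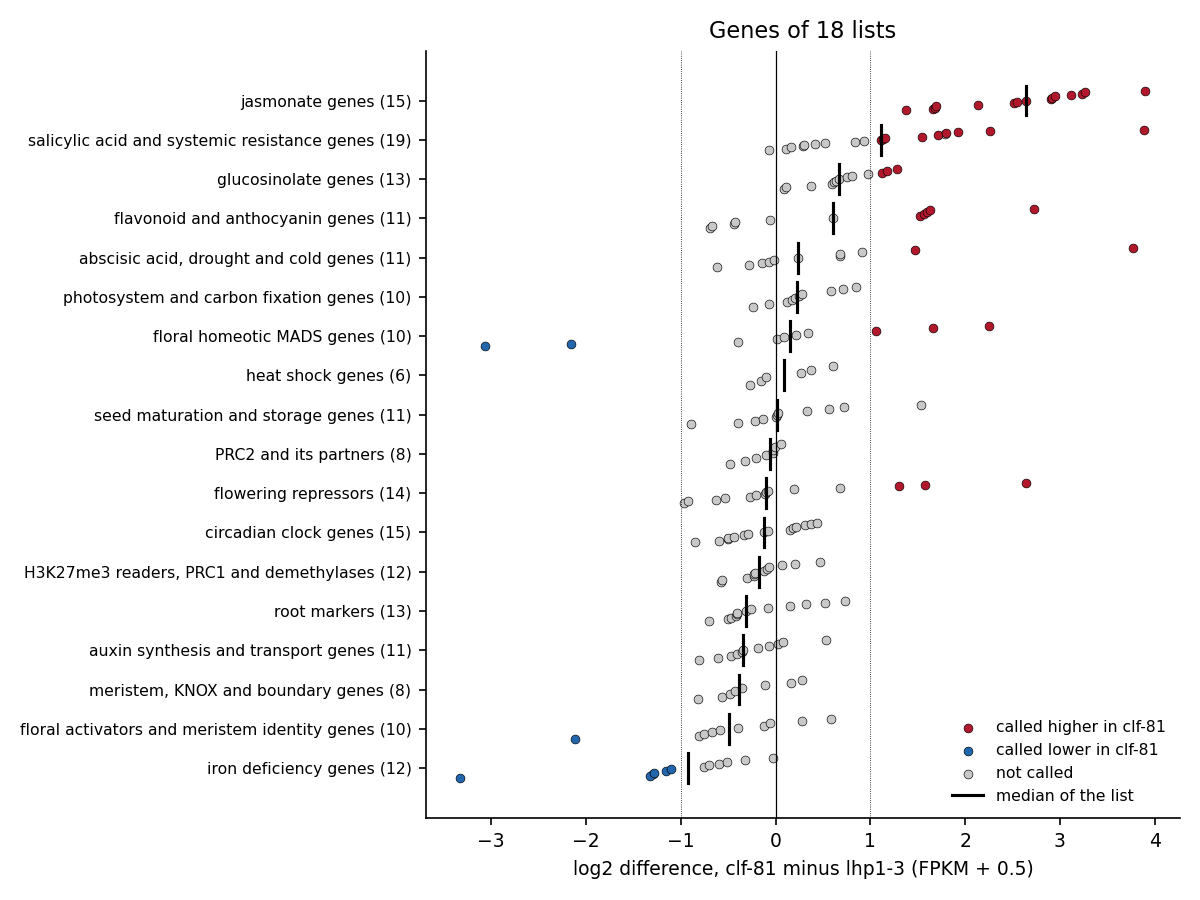
Log2 differences, *clf-81* minus *lhp1-3*, of the genes of 18 lists, ordered by the median of the list (vertical bar), with the number of genes tested in parentheses; dotted lines mark 2-fold. The jasmonate list lies wholly to the right, with a median of 2.65, and the iron list to the left, with a median of -0.93.

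The genes with the largest differences upwards had varied annotated roles, some of them tied to the jasmonate genes above. Of these genes, *VSP1* is itself on the jasmonate list. *AT4G33720*, annotated as a secreted Scp-like protein, had 88.9 and 104 FPKM in *clf-81*, 1.47 and 1.29 FPKM in *lhp1-3* and 0.59 and 3.19 FPKM in Col-0 (log2 difference 5.69, standard error 0.58, adjusted p = 1.2e-04). *NATA1*, which acetylates ornithine and is induced by jasmonate, had 155.6 and 198 FPKM in *clf-81* and 3.70 and 4.61 FPKM in *lhp1-3*. *BSMT1*, a methyltransferase that makes the volatile methyl salicylate, had 15.3 and 36.6 FPKM in *clf-81* and 0.30 and 0.57 FPKM in *lhp1-3*. Each *lhp1-3* value of these genes was under 5 FPKM; lack of overlap between the mutants was a condition for naming them. Both enzymes of one volatile terpene route were on the list: *GES*, the geranyllinalool synthase, and *CYP82G1*, the P450 that cleaves its product. *GES* had 16.1 and 27.9 FPKM in *clf-81*, 0.43 and 0.53 FPKM in *lhp1-3*, and 2.24 and 0.28 FPKM in Col-0. *CYP82G1* had 9.08 and 10.9 FPKM in *clf-81*, 0.22 and 0.17 FPKM in *lhp1-3*, and 0.89 and 0.04 FPKM in Col-0. The remaining genes of the top 12 were *AT2G38240* (4.45), a 2-oxoglutarate-dependent oxygenase, *DXPS1* (4.26), annotated as a deoxyxylulose phosphate synthase, *FAMT* (4.15), a methyltransferase, *SAG13* (3.96), a senescence-associated dehydrogenase, *CORI3* (3.93), a coronatine-induced lyase, *VSP1* and the noncoding RNA gene *AT3G05945*. *DXPS1* had 48.0 and 67.6 FPKM in *clf-81*, 2.49 and 2.50 FPKM in *lhp1-3* and 0.89 and 0.82 FPKM in Col-0.

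*AT3G05945* stood apart from the other leading genes because *lhp1-3* was far below every other genotype. It had 26.1 and 26.5 FPKM in *clf-81*, 0.88 and 0.50 FPKM in *lhp1-3* and 35.0 and 33.4 FPKM in Col-0. Over the 12 libraries of the other 6 genotypes it ran between 6.57 and 46.6 FPKM. It was low in *aipp3* as well, with 7.57 and 6.57 FPKM, and at least 29.5 FPKM in the rest of these libraries. The difference from *lhp1-3* was 4.51 in *clf-81* (standard error 0.16, adjusted p = 9.6e-08), and that of *clf-81* from Col-0 was -0.37 (adjusted p = 0.11).

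Salicylic acid and systemic resistance genes were higher in *clf-81* in part. Of 19 genes tested, 9 (47.4%) were called higher and 0 lower, beside 3.29% and 0.89% of all genes, with a median difference of 1.12, but only 3 to 5 were called when any 1 of the 4 libraries was left out. *PR2*, a secreted glucanase, had 17.82 and 47.7 FPKM in *clf-81*, 1.77 and 1.27 FPKM in *lhp1-3* and 18.24 and 33.4 FPKM in Col-0. Here *clf-81* overlapped Col-0 and *lhp1-3* was the low genotype, with a log2 difference between the mutants of 3.89 (standard error 0.55, adjusted p = 9.9e-04). The transcription factor gene *WRKY70* had the same order, with 10.05 and 9.74 FPKM in *clf-81*, 3.18 and 2.95 FPKM in *lhp1-3* and 11.2 and 8.98 FPKM in Col-0. *WRKY18* differed: it had 91.9 and 109 FPKM in *clf-81*, 30.2 and 30.2 FPKM in *lhp1-3* and 15.5 and 14.8 FPKM in Col-0. The regulators *SARD1* (1.92) and *WRKY62* (1.80) and the enzyme gene *PBS3* (2.27), which conjugates the salicylic acid precursor, were called as well. *PBS3* lost the call without any 1 of the 4 libraries, and *SARD1* and *WRKY62* without the second *lhp1-3* library. *PR1* had 83.7 and 152 FPKM in *clf-81* and 31.6 and 33.0 FPKM in *lhp1-3* and was not called (adjusted p = 0.0875), and *ICS1*, the synthase of the hormone's precursor, differed by 0.29 (adjusted p = 0.49).

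In larger groups, set by annotation terms that came with the values, calls for jasmonate, defence and drought words leaned higher, but median differences were small. The medians were 0.30 for jasmonic acid, 0.08 for defense response, 0.09 for response to salicylic acid and 0.03 for response to water deprivation. That of all genes was -0.04. Of the 221 tested genes with a biological-process term naming jasmonic acid, 50 (22.6%) were called higher and 0 lower, beside 3.29% and 0.89% of all genes. For terms with the words defense response the counts were 107 higher (11.4%) and 6 lower of 935, for response to salicylic acid 25 (16.0%) and 0 of 156, and for response to water deprivation 24 (8.45%) and 0 of 284. At the other end, cell cycle terms had 2 higher and 2 lower of 359 genes, and translation terms 5 and 6 of 673. The groups share genes, and the words were picked with earlier results of these data in view.

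Glucosinolate genes differed less. Glucosinolates are sulphur-containing defence compounds, and all 13 genes of the list were higher in both *clf-81* libraries than in both *lhp1-3* libraries, with a median of 0.67. Of all genes tested, 31.6% had this order. Only 3 of the 13 (23.1%) reached a call, beside 3.29% of all genes. *CYP79F1*, which starts the aliphatic branch, had 63.6 and 60.2 FPKM in *clf-81*, 28 and 26.2 FPKM in *lhp1-3* and 1.97 and 3.98 FPKM in Col-0. *MYB29* (1.12), the transcription factor of that branch, and *FMOGSOX1* (1.28), which oxidises the side chain, were the others called. Both mutants thus lay above Col-0 for *CYP79F1*, and none of the 3 calls held without the second *clf-81* or the second *lhp1-3* library.

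Of 11 flavonoid genes tested, 5 (45.5%) were called higher in *clf-81* and 0 lower, beside 3.29% and 0.89% of all genes, with a median of 0.61. Those called act late in the pathway, towards anthocyanins, a grouping made after the values were seen: the MYB activators *PAP1* (2.73) and *PAP2* (1.56), the dioxygenase gene *LDOX* (1.52), the reductase gene *DFR* (1.597) and the glycosyltransferase gene *UF3GT* (1.63). *PAP1* (*AT1G56650*) had 7.43 and 9.05 FPKM in *clf-81*, 0.96 and 0.68 FPKM in *lhp1-3* and 0.08 and 0.37 FPKM in Col-0. Its *clf-81* values lay far above both other genotypes. *LDOX* lost its call without the second *clf-81* library (adjusted p = 0.052). *TT8*, another activator of the late genes, had 1.69 and 2.18 FPKM in *clf-81* and 1.18 and 1.00 FPKM in *lhp1-3* and was not called (0.61, adjusted p = 0.16). The early genes shared with flavonol synthesis were not called: *CHS* had 328 and 288 FPKM in *clf-81* and 412 and 415 FPKM in *lhp1-3* (-0.43, adjusted p = 0.13). *FLS1*, the flavonol synthase, had 83.4 and 74.1 FPKM in *clf-81* and 129 and 121 FPKM in *lhp1-3* (-0.67, adjusted p = 0.0074), a difference under 2-fold. *F3H* was listed at 0 in all libraries and was not tested. *PAP1* and *PAP2* (*AT1G66390*) are close paralogs. Of 11 abscisic acid, drought and cold genes, the transcription factor genes *NAC019* (3.77) and *RD26* (1.47) were called higher and none lower. Of all genes, 3.29% were called higher and 0.89% lower. The median of the list was 0.24, and 6 of the 11 differences were positive, while 55.0% of all genes had a negative difference. *NAC019* had 16.3 and 19.8 FPKM in *clf-81*, 1.11 and 0.64 FPKM in *lhp1-3* and 0.58 and 0.30 FPKM in Col-0.

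Only 4 genes were called in opposite directions against Col-0, and all were higher in *clf-81* and lower in *lhp1-3*. The thionin gene *AT1G66100* had 112 and 126.5 FPKM in *clf-81*, 8.29 and 9.18 FPKM in *lhp1-3* and 63.9 and 40.6 FPKM in Col-0. *RAP2-6*, an ERF transcription factor gene, had 26.9 and 35.4 FPKM in *clf-81*, 2.12 and 2.04 FPKM in *lhp1-3* and 5.95 and 4.69 FPKM in Col-0. In both, Col-0 lay between the mutants with no overlap on either side. The peroxidase gene *PER59* and the oxygenase gene *DIN11* completed the group.

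Floral regulators separated the mutants in both directions, with 3 of 10 floral homeotic genes called higher and 2 lower, beside 3.29% and 0.89% of all genes. In flowers, the MADS-domain proteins AG, SHP and STK specify stamens, carpels and ovules, and the SEP proteins act with them as partners. *AG* had 27.01 and 26.7 FPKM in *clf-81*, 5.47 and 5.05 FPKM in *lhp1-3* and 0.14 and 0.08 FPKM in Col-0 (log2 difference between the mutants 2.25, standard error 0.19, adjusted p = 3.6e-05). It was thus raised in both mutants over Col-0, and further in *clf-81*. Its relatives *STK* (1.66) and *SHP2* (1.06) were also called higher in *clf-81*. *SEP2* had 0.24 and 0.62 FPKM in *clf-81*, 7.41 and 6.86 FPKM in *lhp1-3* and 0 and 0.05 FPKM in Col-0. *SEP1* had 1.83 and 2.33 FPKM in *clf-81*, 11.8 and 10.13 FPKM in *lhp1-3* and 0.21 and 0.16 FPKM in Col-0. These partner genes therefore had the opposite order, *lhp1-3* above *clf-81*, with differences of -3.07 (*SEP2*) and -2.15 (*SEP1*). The other partner genes did not follow: *SEP3* had 108 and 101.6 FPKM in *clf-81*, 89.5 and 91.1 FPKM in *lhp1-3* and 1.40 and 3.16 FPKM in Col-0 (adjusted p = 0.60), and *SEP4* differed by 0.02. *AP3*, *PI* and *SHP1*, at -0.40, 0.09 and 0.34, were not called either. *SHP2* lost its call without the second *clf-81* or the first *lhp1-3* library. *FUL*, a promoter of flowering and fruit development, had 0.60 and 0.51 FPKM in *clf-81*, 4.47 and 3.72 FPKM in *lhp1-3* and 0.72 and 0.75 FPKM in Col-0 (-2.12, standard error 0.16, adjusted p = 2.1e-05). Of 10 tested floral activators only *FUL* was called, beside 3.29% of all genes called higher and 0.89% lower. The median difference of these activators was -0.49.

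**Figure D3:**
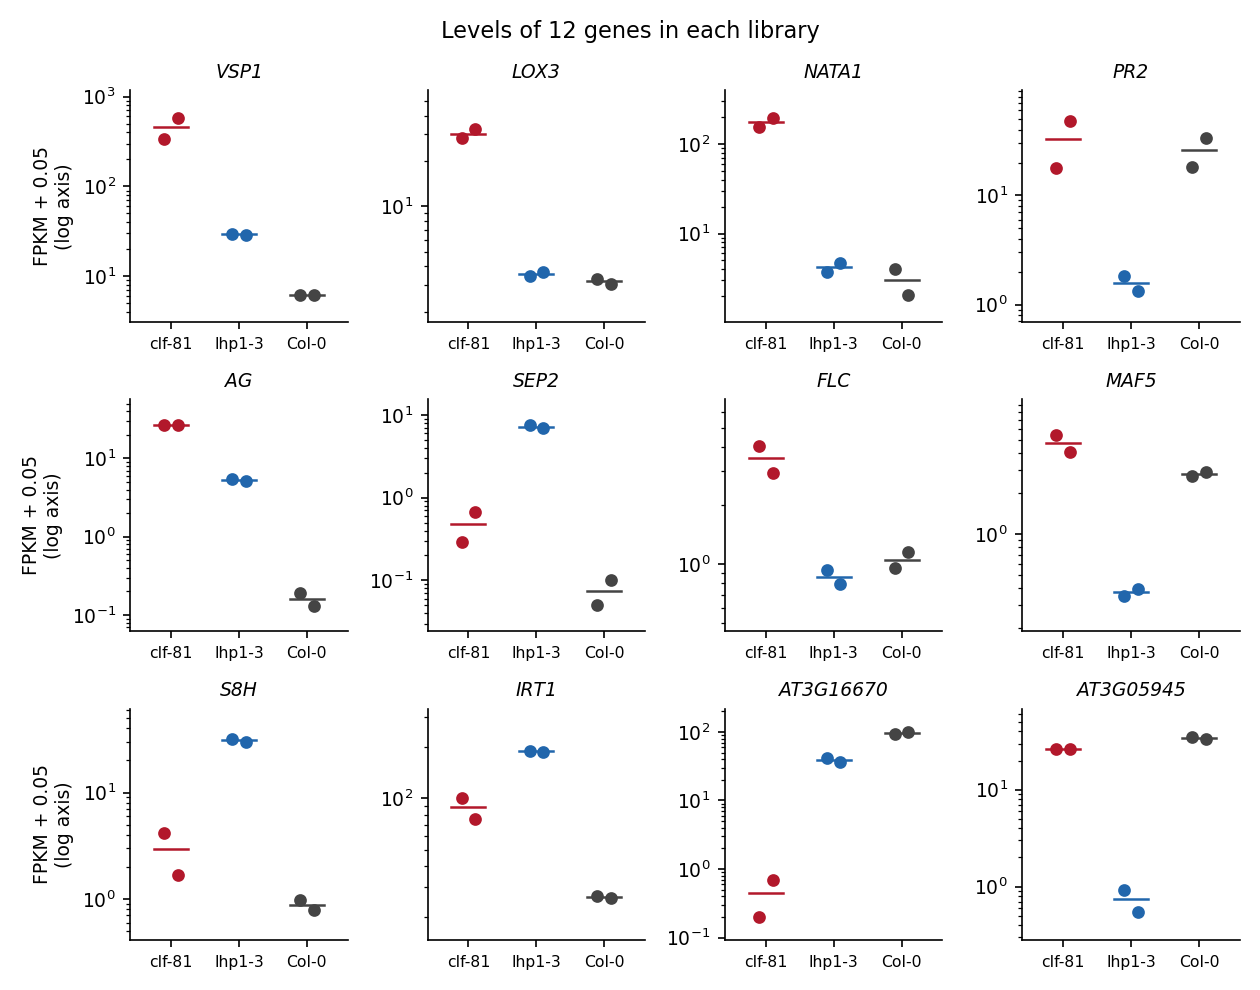
Level of 12 genes (FPKM + 0.05, log axis, scaled per gene) in the 2 libraries each of *clf-81* (red), *lhp1-3* (blue) and Col-0 (grey); points are libraries and bars their means. *AG* falls in steps across the genotypes, *SEP2*, *S8H* and *IRT1* peak in *lhp1-3*, *AT3G16670* is lowest in *clf-81* and *AT3G05945* in *lhp1-3*.

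Of the 6 genes of the *FLC* family of flowering repressors, *FLC*, *MAF4* and *MAF5* were called higher in *clf-81* and the other 3 were not called. Among all 14 repressors on the list, 3 (21.4%) were called higher and 0 lower, beside 3.29% and 0.89% of all genes, and the median was -0.11. *FLC* had 3.96 and 2.89 FPKM in *clf-81*, 0.88 and 0.74 FPKM in *lhp1-3* and 0.91 and 1.10 FPKM in Col-0 (log2 difference between the mutants 1.57, standard error 0.25, adjusted p = 0.0019). *MAF5*, an *FLC* relative, had 5.36 and 3.99 FPKM in *clf-81*, 0.30 and 0.34 FPKM in *lhp1-3* and 2.63 and 2.81 FPKM in Col-0. Its difference was 2.65 (standard error 0.22, adjusted p = 3.6e-05), and *lhp1-3* was called lower than Col-0 (-1.97), while *clf-81* was not called against Col-0 (0.67). *MAF4*, its neighbour on chromosome 5, was called at 1.30, but not when any 1 of the 4 libraries was left out. The other 11 tested repressors were not called, among them *SVP* with 10.2 and 11.4 FPKM in *clf-81* and 16.8 and 17.2 FPKM in *lhp1-3* (-0.63, adjusted p = 0.042). In the *FLC* family, *FLM* differed by 0.20 (adjusted p = 0.41), *MAF2* by -0.11 (adjusted p = 0.73) and *MAF3* by -0.27 (adjusted p = 0.18). *FT*, the mobile flowering signal that FLC represses, had 9.25 and 6.16 FPKM in *clf-81*, 14.2 and 13.1 FPKM in *lhp1-3* and 0.82 and 1.75 FPKM in Col-0. The mutants did not overlap, but the difference of -0.81 (standard error 0.37) had an adjusted p of 0.17, with an interval (95%, unadjusted) from -1.61 to -0.01.

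Iron deficiency genes were lower in *clf-81* than in *lhp1-3* in part. Roots short of iron switch on the regulator FIT, the reductase FRO2 and the transporter IRT1, and secrete coumarins made with S8H and CYP82C4. Of 12 genes tested, 5 (41.7%) were called lower and 0 higher, beside 0.89% and 3.29% of all genes. All 12 differences were negative, as were 55.0% of all genes, and the median was -0.93 against -0.04. *S8H*, the scopoletin hydroxylase, had 4.12 and 1.63 FPKM in *clf-81*, 31.9 and 29.9 FPKM in *lhp1-3* and 0.92 and 0.74 FPKM in Col-0 (-3.32, standard error 0.40, adjusted p = 3.4e-04). *IRT1* had 100.8 and 75.9 FPKM in *clf-81*, 190 and 187 FPKM in *lhp1-3* and 26.7 and 25.97 FPKM in Col-0. The order of the genotypes was the same in both genes, with *lhp1-3* highest and *clf-81* above Col-0. *FRO2* (-1.29), *CYP82C4* (-1.32) and *FIT* (-1.16) were also called lower. With any 1 library left out, 2 to 4 genes of the list were called, and of the 5 only *S8H* and *FRO2* were called in each of these fits. Root markers moved in the same direction without a call: 8 of the 13 were lower in both *clf-81* libraries than in both *lhp1-3* libraries and 3 were higher, against 40.0% and 31.6% of all genes, and their median difference was -0.32. The part of root content in the iron values was not tested.

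The gene with the largest decrease was *AT3G16670* (chr3:5681380-5682362), a nuclear gene annotated for the response to oxidative stress. It had 0.15 and 0.64 FPKM in *clf-81*, 42.1 and 36.8 FPKM in *lhp1-3* and 92.1 and 100.6 FPKM in Col-0 (-5.53, standard error 0.24, adjusted p = 4.7e-07). Over the 12 libraries of the other 6 genotypes it ran between 58.2 and 273 FPKM, so *clf-81* was far below every other genotype, and *lhp1-3*, lower than Col-0 by a log2 difference of -1.28, came next. Its neighbour *AT3G16660*, annotated as related to the pollen protein Ole e I, had 2.50 and 2.20 FPKM in *clf-81*, 17.62 and 18.18 FPKM in *lhp1-3* and 20.4 and 35.6 FPKM in Col-0. *AT3G05730*, annotated for defence against fungi, behaved alike, with 6.03 and 7.92 FPKM in *clf-81*, 89.2 and 84.8 FPKM in *lhp1-3* and at least 81.2 FPKM in the other 12 libraries. The pair *AT4G05475* and *AT4G05470*, neighbours annotated as F-box and leucine-rich repeat proteins, was of another kind. *AT4G05475* had 0.40 and 0.75 FPKM in *clf-81*, 15.2 and 16.4 FPKM in *lhp1-3* and was listed at 0 in both Col-0 libraries. *AT4G05470* had 2.31 and 1.24 FPKM in *clf-81*, 10.9 and 14.02 FPKM in *lhp1-3* and 0.10 and 0.04 FPKM in Col-0. Both were thus highest in *lhp1-3* and near 0 in Col-0. As neighbours of 1 family they may share reads.

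The promoter of *AT3G16670* (chr3:5681130-5681379, plus strand) is shown because this gene fell most. It holds the telobox AAACCCTA, a short element linked to PRC2 recruitment, in capitals, with its first base 115 bases before the start.
AT3G16670: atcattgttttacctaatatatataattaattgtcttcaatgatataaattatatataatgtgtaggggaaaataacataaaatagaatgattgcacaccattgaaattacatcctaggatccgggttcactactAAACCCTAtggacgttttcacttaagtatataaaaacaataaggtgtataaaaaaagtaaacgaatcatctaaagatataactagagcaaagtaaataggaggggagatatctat
The telobox was in 13 of 646 promoters (2.01%) of genes called higher, 7 of 144 (4.86%) of those called lower and 709 of 19558 (3.63%) of all. The repeat GAGAGAGA was in 2.63%, 1.39% and 4.48%, and the evening element AAAATATCT, a clock motif, in 3.10%, 4.17% and 2.48% of the same groups, all searched on both strands.

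Chloroplast transcripts made up part of the lower genes and varied between libraries of one genotype. Of 114 chloroplast genes tested, 27 (23.7%) were called lower in *clf-81* and 0 higher, beside 0.89% and 3.29% of all genes. The chloroplast genes summed to 230.2 and 227 FPKM in *clf-81*, 401 and 1957 FPKM in *lhp1-3* and 3443 and 1023 FPKM in Col-0, and to between 389 and 2930 FPKM in the other 10 libraries. Both *clf-81* libraries were the lowest of the series, and the *lhp1-3* pair differed several-fold from each other. *PSAB*, a photosystem I subunit, had 0.92 and 0.58 FPKM in *clf-81*, 3.04 and 16.0 FPKM in *lhp1-3* and 18.1 and 5.26 FPKM in Col-0. The other chloroplast genes among the 12 largest decreases were *PSAA* (-2.52), the 4.5S ribosomal gene *RRN4.5S.1* (-2.74), and *ATCG01160* (-3.004) and *ATCG00970* (-2.90), copies of the 5S ribosomal gene. With any 1 library left out the number called lower ran from 2 (without the second *lhp1-3* library) to 44 (without the first), with 11 without the first and 5 without the second *clf-81* library. A fit of nuclear genes alone, chosen after seeing the data, called 659 higher and 149 lower. None of the nuclear photosystem genes was called, and *LHCB3*, the one with the largest difference, had 492 and 584 FPKM in *clf-81* and 299 and 298 FPKM in *lhp1-3* (0.84, adjusted p = 0.26). Whether the RNA preparation had a part in the chloroplast values was not tested.

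Along the chromosomes, 43 of the 655 genes called higher lay in runs of at least 3 neighbouring tested genes with a call in the same direction. There were 13 such runs, all of them higher in *clf-81*, though genes called lower were also far fewer. Several were tandem families, in which copies may share reads: the glutathione transferases *GSTU3* to *GSTU6* on chromosome 2 (chr2:12619630-12629640, 1.15 to 3.34), 4 germin-like genes on chromosome 5 (*AT5G39110* to *AT5G39180*, 1.57 to 2.02), the allene oxide cyclases *AOC1* to *AOC3*, and the methionine sulphoxide reductases *MSRB7* to *MSRB9*. Of the germin-like genes, *AT5G39150* had 6.6 and 1.71 FPKM in *clf-81* and 0.62 and 0.56 FPKM in *lhp1-3*, so its libraries disagreed on the size, and only *AT5G39110* was called without every library in turn. *GSTU4* had 27.04 and 43.8 FPKM in *clf-81*, 5.20 and 4.76 FPKM in *lhp1-3* and 9.14 and 9.64 FPKM in Col-0.

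Another 3 of the 13 runs lay close together near the end of chromosome 5 and were not a gene family. They were part of a stretch of 18 consecutive tested genes, *AT5G67200* to *SBT1.7* (chr5:26813670-26874850, 61.2 kb), in which both *clf-81* libraries lay above both *lhp1-3* and both Col-0 libraries at every gene. The stretch was found after the values were seen, and its ends were set by this criterion, so its values are a description. Single genes met the criterion in 18.9% of cases, and the next longest run had 8 genes. Over the 18 genes the median difference was 1.15 between *clf-81* and *lhp1-3* (range 0.47 to 1.91) and 1.08 between *clf-81* and Col-0 (0.45 to 2.96), while between *lhp1-3* and Col-0 it was 0.05. A value of 1 is a 2-fold difference. The 18 tested genes on the left had a median of 0.16 between the mutants and the 18 on the right 0.01. In the same 18 genes of the stretch, the median level over the Col-0 mean was 1.06 and 1.10 in the *clf-81* libraries and between -0.07 and 0.21 in the other 14 libraries.

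The genes named from the stretch differ in level and mostly in role, though the xylan genes *IRX15-L* and *IRX14H* are both among them. Whether their roles are related was not examined. *CYCD3;2*, a D-type cyclin, had 60.6 and 61.8 FPKM in *clf-81*, 32.8 and 32.6 FPKM in *lhp1-3* and 26.4 and 33.3 FPKM in Col-0. *HOS15*, a WD-repeat protein of histone deacetylase complexes, had 31.9 and 32.5 FPKM in *clf-81*, 18.98 and 18.17 FPKM in *lhp1-3* and 18.98 and 18.99 FPKM in Col-0. *SBT1.7*, a subtilisin-like protease, had 179.9 and 178 FPKM in *clf-81*, 80.8 and 78.9 FPKM in *lhp1-3* and 67.8 and 74.5 FPKM in Col-0. In each, *lhp1-3* was close to Col-0 and the *clf-81* libraries agreed closely. *MYB44*, a stress-responsive transcription factor gene, differed most, with 281.8 and 274 FPKM in *clf-81*, 74.6 and 72.4 FPKM in *lhp1-3* and 32.8 and 37.8 FPKM in Col-0, and here *lhp1-3* was above Col-0 as well (1.05, adjusted p = 3.2e-05). The criterion that set the stretch favours calls in this direction, so their number is a description. With any 1 library left out, the median difference over the 18 genes ran from 1.11 to 1.18. An adjusted p under 0.05 was met by 16 of the 18, beside 1483 higher and 1421 lower of all 19895. Of the 18 genes, 12 were called, beside 3.29% of all genes called higher. Others were the xylan genes *IRX15-L* (1.59) and *IRX14H* (1.28), the metal transporter gene *NRAMP4* (1.14, not called without any 1 of the 4 libraries), the ubiquitin ligase gene *PUB2* (1.31) and *CYP81G1* (1.21), a P450 gene that overlaps *MYB44* and reached 1.02 FPKM in *clf-81*. *CYP81G1* had only 0.04 and 0.21 FPKM in *lhp1-3*, and it was not called with a pseudocount of 1. The 4 untested genes of the stretch stayed at or under 0.25 FPKM in every library. *CLF* itself lies on chromosome 2, and within 1 Mb of it 15 of 340 tested genes (4.41%) were called higher and 2 (0.588%) lower. Within 1 Mb of *LHP1* the counts were 7 (1.602%) and 2 (0.458%) of 437, beside 3.29% and 0.89% of all genes. DNA was not measured in these libraries, and the cause of the stretch was not tested.

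**Figure D4:**
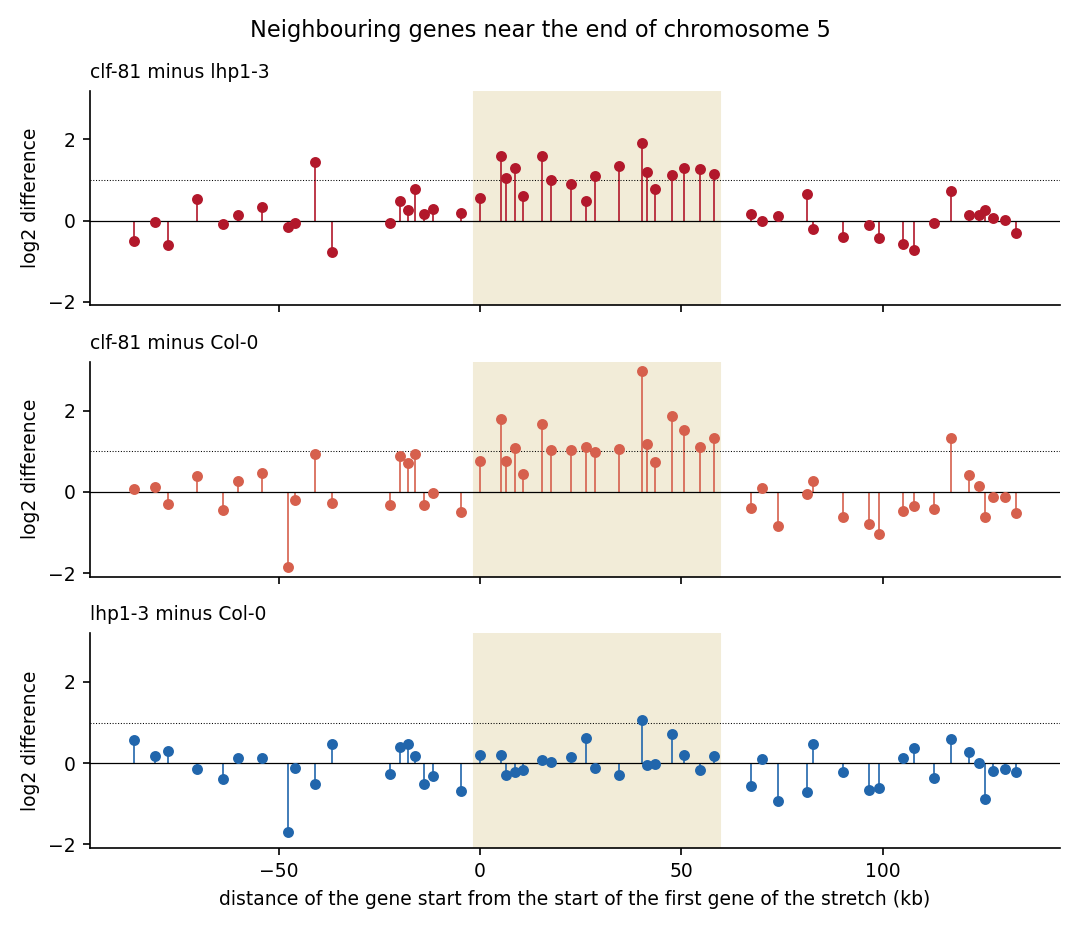
Log2 difference of each tested gene of the chromosome 5 stretch (shaded) and of 18 tested genes on either side, by the distance of its start from the first gene of the stretch (kb), for *clf-81* minus *lhp1-3*, *clf-81* minus Col-0 and *lhp1-3* minus Col-0. Inside the stretch all 18 genes are above 0 in both upper panels, as the criterion for the stretch required. Their medians there are 1.15 and 1.08, and they scatter round 0.05 in the lowest.

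**Figure D5:**
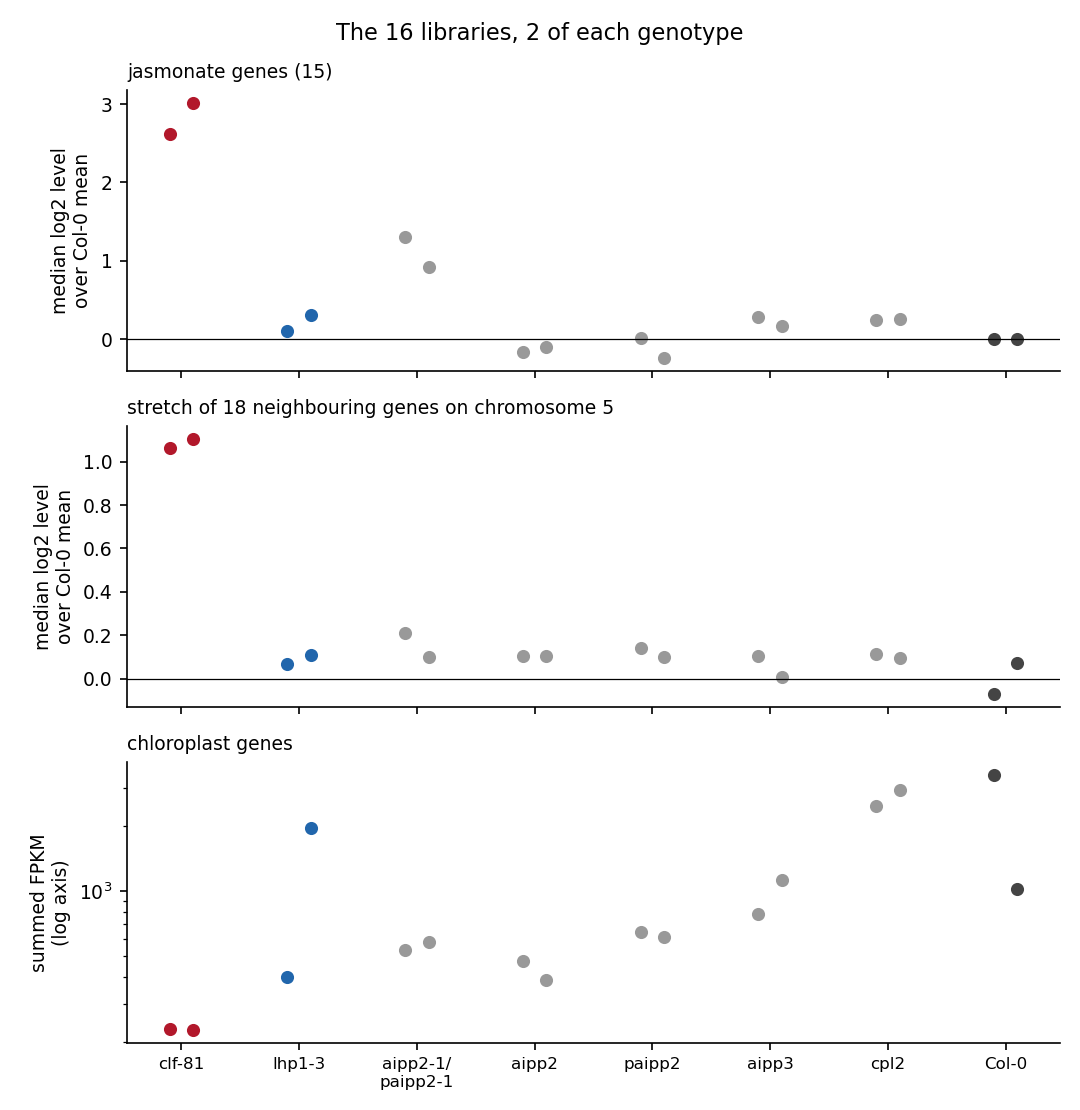
The 2 libraries of each genotype for the median log2 level over the Col-0 mean of 15 jasmonate genes (top) and of the 18 genes of the chromosome 5 stretch (middle), and for the summed level of chloroplast genes (bottom, FPKM, log axis). The *clf-81* libraries are highest in the upper panels (2.62 and 3.01 for jasmonate genes) and lowest in the bottom panel.

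Several lists of regulators held no called gene, beside 3.29% of all genes called higher and 0.89% lower. At these shares a list this small may hold none. The 11 seed genes together summed to only 8.04 and 8.16 FPKM in *clf-81* and 6.38 and 5.37 FPKM in *lhp1-3*. At such levels the added 0.5 shrinks differences, so the lack of a call among them says little. No member was called among 8 genes of PRC2 and its partners (median difference -0.06), 12 readers, PRC1 genes and demethylases (-0.17), 8 meristem and boundary genes (-0.39), 11 seed genes (0.01), 15 clock genes (-0.12), 6 heat shock genes (0.09) or 11 auxin genes (-0.35). The H3K27me3 demethylase gene *REF6* had 5.61 and 5.51 FPKM in *clf-81* and 8.77 and 8.31 FPKM in *lhp1-3* (-0.58, adjusted p = 0.020). *ELF6*, a demethylase gene of the same kind, had 5.62 and 6.02 FPKM in *clf-81* and 8.89 and 8.77 FPKM in *lhp1-3* (-0.56, adjusted p = 0.013). *ELF3*, a clock component, had 13.1 and 12.3 FPKM in *clf-81* and 23.2 and 23.4 FPKM in *lhp1-3* (-0.85, adjusted p = 4.8e-04). All 3 were lower in *clf-81* by less than 2-fold. Of the 12 readers, PRC1 genes and demethylases, 8 were lower in both *clf-81* libraries than in both *lhp1-3* libraries and 2 higher, against 40.0% and 31.6% of all genes. The largest differences of the other lists were *AS1* (-0.82, adjusted p = 0.0072), *TAA1* (-0.80, adjusted p = 0.013), *SESA1* (1.54, adjusted p = 0.15), *HSP17.8* (0.60, adjusted p = 0.29) and the root marker *EXPA18* (0.73, adjusted p = 0.18). Of the other genes the study followed, *SOC1*, a floral activator, differed by -0.12 (adjusted p = 0.75). *SUC5* had 1.29 and 1.08 FPKM in *clf-81*, 1.32 and 1.35 FPKM in *lhp1-3* and 0.19 and 0.46 FPKM in Col-0. *SEC31A* and *AGO5* stayed at or under 0.31 FPKM in both mutants, and none of these 4 genes was called.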

How the data were processed

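Messenger RNA of 8 *Arabidopsis* genotypes (2 libraries each) had been sequenced as paired-end reads. Reads were trimmed by the authors (SeqPrep, then Sickle), who deposited an FPKM value with 2 decimals for each of 33048 genes. Their processing notes name TopHat, Bowtie, RSEM and edgeR without versions or roles, and the genome build of the mRNA-seq is not given in the sources used here. Coordinates and promoters are those of TAIR10.1, matched by gene ID (32548 genes). Depth was recovered from the steps between low FPKM values, of which 94.8% to 97.4% lay within 0.15 fragments of a whole number.

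Since the values are FPKM, no count test was run. log2(FPKM + 0.5) was fitted with limma 3.58.1 (R 4.3.3, eBayes with a trend) over all 16 libraries, with 8 residual degrees of freedom, for the 19895 genes that reached 1 FPKM in 2 or more libraries. Tested on simulated data (19895 genes, 200 of them changed), the fit recovered 192 and made 5 false calls. The noise was normal, the changed genes were not among the lowest, and all changes were set beyond the 2-fold threshold. Recovery of low genes, or of differences near the threshold, was therefore not tested. Python 3.11.15 with pandas 2.3.3 and matplotlib 3.10.9 was used.

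The members and gene lists were chosen with earlier results of these data known. Named genes were *CLF*, *LHP1* and *SWN*, genes the study names, the 12 largest called differences in each direction without overlap, up to 6 called members of each list (or the largest difference where none was called), genes called oppositely against Col-0 and genes of up to 4 runs of called neighbours. Other list members and genes of the chromosome 5 stretch were named after their values were seen. Alternatives were pseudocounts, filters, scalings, fewer libraries, eBayes without a trend, the replicate block, other call rules and each library left out in turn. The replicate numbers pair nothing in the labels.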

Additional observations from a re-analysis of the deposited data

Results flagged for a closer look

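The genes called in opposite directions against Col-0 were higher in *clf-81* and lower in *lhp1-3* than in Col-0. They were picked for this in the same libraries and fit, which fixes a direct difference of at least 4-fold, so the values are a description and the difference was not tested independently. *AT1G66100* was higher in *clf-81* than in Col-0 by 1.22 and lower in *lhp1-3* by 2.48 on the log2 scale, a difference between the mutants of 3.70. *RAP2-6* had differences from Col-0 of 2.44 in *clf-81* and -1.17 in *lhp1-3*, and 3.60 between the mutants. *PER59* had 15.2 and 13.9 FPKM in *clf-81*, 0.91 and 1.34 FPKM in *lhp1-3* and 3.85 and 5.52 FPKM in Col-0, a difference between the mutants of 3.22. *DIN11* had 40.3 and 35.3 FPKM in *clf-81*, 5.49 and 5.19 FPKM in *lhp1-3* and 16.6 and 9.27 FPKM in Col-0, with 2.71 between the mutants. The cause was not tested. With 2 libraries per genotype, single libraries could not be examined for outliers.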

How the results depend on the processing

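The count of genes called higher in *clf-81* than in *lhp1-3* (655) ran from 551 to 716 under the pseudocounts, filters, scalings, fits of only these 4 libraries or without 1 other genotype, nuclear genes alone and eBayes without a trend. The count called lower (177) ran from 115 to 256 under the same settings, and the pseudocount of 1 gave the 115. The *aipp2-1/paipp2-1* pair, which shares in the pooled spread, had the lowest correlation between replicates (0.942). Without these libraries 693 genes were called higher and 235 lower. With the adjusted p alone and no fold threshold, 1483 genes were higher and 1421 lower. By 2-fold differences in each of the 4 pairs of libraries and no test, 532 were higher and 109 lower. Leaving out each library in turn gave 415 to 567 higher and 67 to 163 lower, fewer samples being compared. With the replicate block the counts were 641 and 167; same-numbered libraries of *clf-81* and *lhp1-3* deviated with a correlation across genes of 0.0031, so the numbers were not taken as pairs. The counts against Col-0 stayed within 1.5 times under every alternative run for them, the replicate block included. Of 77 named genes called, 54 kept the call with each library left out and 23 lost it at least once; no call on a named gene reversed in any alternative. Sampling limits genes under about 1 FPKM most, where the added 0.5 shrinks differences.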
